A study of Mus musculus with 12 samples.

Results

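The RNA of 9 mouse genes that handle zinc was followed through sorted small-intestinal crypt cells that kept or lacked the glucocorticoid receptor. They are the metallothioneins Mt1 and Mt2, the zinc-sensing transcription factor Mtf1, the zinc exporters Slc30a1, Slc30a2, Slc30a5 and Slc30a7, and the zinc importers Slc39a4 and Slc39a7. The genes were picked by their symbol from the 55414 genes of the count table, with earlier results of the same table known, so that their values are a description and no independent test of a pattern. All 9 passed the filter on low counts that left 13057 genes.

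The table holds bulk RNA-seq of 12 libraries in 4 groups of 3. Crypt cells of naive adult C57BL/6J mice were sorted as Paneth or non-Paneth cells, from mice that were either wild type (WT) or GRvillinKO (GRKO), in which the glucocorticoid receptor gene Nr3c1 is deleted in epithelial cells that express villin. The villin promoter works throughout the intestinal epithelium, so the deletion was present in both sorted fractions of a GRKO mouse and in their epithelial neighbours, and not in the stroma or blood cells. Paneth cells were gated as CD31- CD45- TER119- CD24+ cKIT+ cells of medium to high side scatter, and how non-Paneth cells were gated is not stated in the sources used here. Genotypes were read from the sample titles, since the genotype field of the records follows the cell fraction instead. The records number the libraries 1 to 3 in each group without naming the animals, so that the p-values measure the spread between these libraries.

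Zinc in a cell is mostly bound. Metallothioneins are small cysteine-rich proteins that bind zinc and copper in the cytosol, and their genes are classic targets of both metals and glucocorticoids. When free zinc rises, MTF1 binds metal response elements and raises transcription of Mt1, Mt2 and Slc30a1. Slc30a (ZnT) proteins move zinc out of the cytosol, across the cell membrane or into organelles, and Slc39a (ZIP) proteins move it into the cytosol. Paneth cells are known for granules rich in zinc, and ZnT2, the product of Slc30a2, loads them. Enterocytes, which form from crypt progenitors, take up dietary zinc through ZIP4, the product of Slc39a4.

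Promoters are shown for the 4 members that hold at least 2 copies of the metal response element core, since these are the sequences through which MTF1 is known to act and the genes did not move together. They come from the RefSeq promoter table (GRCm38.p6), which matched 8 of the 9 members by symbol, all but Slc39a4. Each line gives 250 bases before and 30 after the transcription start of the table, 5′ to 3′, on the plus strand, with the core TGCACNC or TGCGCNC on either strand in capitals. The windows are chr8:94178839-94179118 for Mt1, chr8:94172368-94172647 for Mt2, chr1:191906531-191906810 for Slc30a1 and chr4:134343216-134343495 for Slc30a2.
Mt1: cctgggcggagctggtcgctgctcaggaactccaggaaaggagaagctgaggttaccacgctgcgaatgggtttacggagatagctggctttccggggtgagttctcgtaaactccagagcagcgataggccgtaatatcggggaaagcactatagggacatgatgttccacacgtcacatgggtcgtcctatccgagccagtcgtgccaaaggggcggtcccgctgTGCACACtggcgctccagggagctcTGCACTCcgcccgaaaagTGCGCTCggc
Mt2: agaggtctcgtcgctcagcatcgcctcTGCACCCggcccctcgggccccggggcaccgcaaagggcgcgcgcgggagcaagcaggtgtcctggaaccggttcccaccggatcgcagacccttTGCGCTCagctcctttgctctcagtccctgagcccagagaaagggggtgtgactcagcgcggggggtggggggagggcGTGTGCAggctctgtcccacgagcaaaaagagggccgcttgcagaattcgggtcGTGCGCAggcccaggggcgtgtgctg
Slc30a1: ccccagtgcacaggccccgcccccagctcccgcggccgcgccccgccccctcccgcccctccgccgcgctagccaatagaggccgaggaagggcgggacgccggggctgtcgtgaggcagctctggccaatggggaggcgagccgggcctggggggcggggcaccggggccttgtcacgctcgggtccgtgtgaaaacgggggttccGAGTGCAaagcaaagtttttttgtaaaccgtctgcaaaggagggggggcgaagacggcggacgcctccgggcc
Slc30a2: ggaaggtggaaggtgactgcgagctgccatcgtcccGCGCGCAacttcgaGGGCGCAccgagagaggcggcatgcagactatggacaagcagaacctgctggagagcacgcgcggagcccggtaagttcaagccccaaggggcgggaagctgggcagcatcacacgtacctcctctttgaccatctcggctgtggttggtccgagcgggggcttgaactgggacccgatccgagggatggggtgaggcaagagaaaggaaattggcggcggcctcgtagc

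In the 300 bases of the table, of which the last 20 are not shown, Mt2 held 4 cores, Mt1 held 3, Slc30a1 and Slc30a2 held 2 each, and Slc30a5 held 1. Mtf1, Slc30a7 and Slc39a7 had no match in this window. Of all 32851 promoters in the table, 25.7% held at least 1 core, 7.11% at least 2, 1.97% at least 3 and 0.517% at least 4. The palindromic glucocorticoid response element, searched as GNACANNNTGTNC, was found in 1 member, Mt1, as GGACATGATGTTC from 94 bases before the start, and in 0.475% of all promoters. These matches describe the letters and are not evidence of binding. Counted from the table's start, GENCODE vM39 has Mt1 transcript starts at -7 (the canonical one) and 152, and Mt2 transcript starts at -427, -114 (the canonical one), -46 and 242. The Mt2 cores from -50 and 5 thus lie downstream of the canonical Mt2 start, and the Mt1 cores from 3 and 21 downstream of the canonical Mt1 start. All Mt1 cores lie upstream of the Mt1 start at 152, and all Mt2 cores upstream of the Mt2 start at 242. The window reaches 50 bases past the table's start, so most sequence close to these later starts was not searched. The starts of the other members were not compared in this way, so that their cores, those of Slc30a2 among them, may lie within transcripts from earlier starts. Sequence outside the window was not searched.

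Mt1 (ENSMUSG00000031765) lies on chromosome 8 at 94905710 to 94906955 of GRCm39, on the plus strand, a few kilobases downstream of Mt2 (ENSMUSG00000031762) at 94898819 to 94900207. Mtf1 lies on chromosome 4 at 124695897 to 124743593, Slc30a1 on chromosome 1 at 191638808 to 191645361, and Slc30a2 on chromosome 4 at 134070234 to 134081795. Slc30a5 is found on chromosome 13 at 100936795 to 100970006, Slc30a7 on chromosome 3 at 115732621 to 115801060, Slc39a4 on chromosome 15 at 76496580 to 76504172, and Slc39a7 on chromosome 17 at 34247243 to 34250656. All 9 are protein-coding, and counts were summed over all exons of a gene, untranslated parts included. Of the exonic bases of Slc39a7, 78.3% are shared on the same strand with the lncRNA gene Gm20427, where reads are assigned to neither gene, so that the level of Slc39a7 is understated. Mt2 shares 82.4% of its exonic bases with the lncRNA gene Gm45774 on the opposite strand, which had 0 to 4 counts per library.

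Totals lay between 11126297 and 15910292 counts per library. Values are given as scaled CPM, a count divided by the library total and by a TMM factor and brought to CPM. The TMM factors, which correct for RNA composition, were 0.656 to 0.826 in Paneth and 1.2 to 1.5 in non-Paneth libraries. The sum of 8 Paneth markers was 357244 to 445569 CPM of library totals in Paneth and 444 to 1701 CPM in non-Paneth libraries, and the immune and the stromal markers, Ptprc and Pecam1 among them, each summed to at most 29.1 CPM. Nr3c1, the gene deleted in GRKO mice, was found at 40.8, 50.3 and 54.1 scaled CPM in WT and 7.97, 5.82 and 15.4 in GRKO Paneth cells. In non-Paneth cells it was found at 110, 126 and 131 scaled CPM in WT and 20, 13.1 and 24.5 in GRKO libraries. GRKO libraries lay below WT libraries in both fractions, by 2.31 ± 0.319 (SE) on the log2 scale in Paneth cells (adjusted p = 0.0331) and by 2.67 ± 0.298 in non-Paneth cells (adjusted p = 6.67e-05). GRKO replicate 3 had the highest Nr3c1 of its group in both fractions. WT replicate 2 stood apart in genes of the sex chromosomes, and the sex of the mice is not stated in the sources used here. Xist, the RNA of the inactive X chromosome, had 1560 counts in its Paneth and 3689 in its non-Paneth library, against 0 to 8 in each other library. Of the Y-linked genes Ddx3y, Uty, Kdm5d and Eif2s3y it had 0 to 7 counts each, against 124 to 697 elsewhere. By these genes WT replicate 2 reads as female and all other libraries as male, so that sex is not balanced between the genotypes. Results that changed without both libraries of WT replicate 2 are given with that value. Tests are edgeR's quasi-likelihood F-test over all 12 libraries, with p-values adjusted over 13057 genes and a threshold of 5%.

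Mt1 RNA was higher without the glucocorticoid receptor, in both fractions and in every library. In Paneth cells, Mt1 was found at 69.8, 52.7 and 41.5 scaled CPM in WT replicates 1, 2 and 3 and at 116, 132 and 128 in GRKO replicates. In non-Paneth cells it was found at 59.3, 50.7 and 48.2 in WT and 152, 163 and 217 in GRKO libraries. The lowest GRKO library was above the highest WT library in each fraction. The log2 fold change was 1.19 ± 0.179 (SE) in Paneth cells, a 2.28-fold increase (adjusted p = 0.0331), and 1.75 ± 0.179 in non-Paneth cells, a 3.36-fold increase (adjusted p = 1.04e-05). The effects in the 2 fractions differed by 0.56 ± 0.248, which did not pass the threshold (adjusted p = 0.129). In Paneth cells the call was lost when only the Paneth libraries were fitted (adjusted p = 0.0636), with scaling by library totals (adjusted p = 0.059) and without GRKO replicate 2 (adjusted p = 0.171), where the log2 fold change was 1.13, 1.2 and 1.16. It was lost as well when both WT replicate 2 libraries were left out (1.17, adjusted p = 0.0712). Bulk RNA cannot tell more RNA per cell from more cells of a type that holds the RNA.

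Mt2 did not follow Mt1. In Paneth cells it was found at 13.6, 6.06 and 6.15 scaled CPM in WT and at 6.16, 4.32 and 22.7 in GRKO replicates 1, 2 and 3. In non-Paneth cells the values were 14.1, 12.1 and 8.12 in WT and 10.2, 5.91 and 42.4 in GRKO libraries. GRKO replicate 3 was the highest library of all in each fraction, and the other GRKO libraries lay within or below the range of the WT libraries. The log2 fold change was 0.35 ± 0.894 (adjusted p = 0.835) in Paneth cells and 0.77 ± 0.817 (adjusted p = 0.498) in non-Paneth cells. Without GRKO replicate 3 of the fraction it turned to -0.75 and -0.55. With no filter on low counts the non-Paneth value, 0.8, passed the threshold (adjusted p = 0.000206).

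The proportion of the 2 neighbouring genes within a library, which no scaling can alter, differed between libraries. In the 6 WT libraries there were between 4.17 and 8.69 Mt1 counts for each Mt2 count. GRKO replicate 1 had 18.8 in Paneth and 14.8 in non-Paneth cells, and GRKO replicate 2 had 30.5 and 27.6. GRKO replicate 3, at 5.64 and 5.12, lay inside the range of the WT libraries. The same split was seen in both fractions of a replicate number. Counts behind these ratios were 351 to 5040 for Mt1 and 49 to 984 for Mt2. For replicates 1 and 2 of GRKO, Mt2 made up 3.18% to 6.33% of the counts of both genes, against 10.3% to 19.3% in WT libraries. Differences between mice and between preparations cannot be told apart here.

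**Figure D1:**
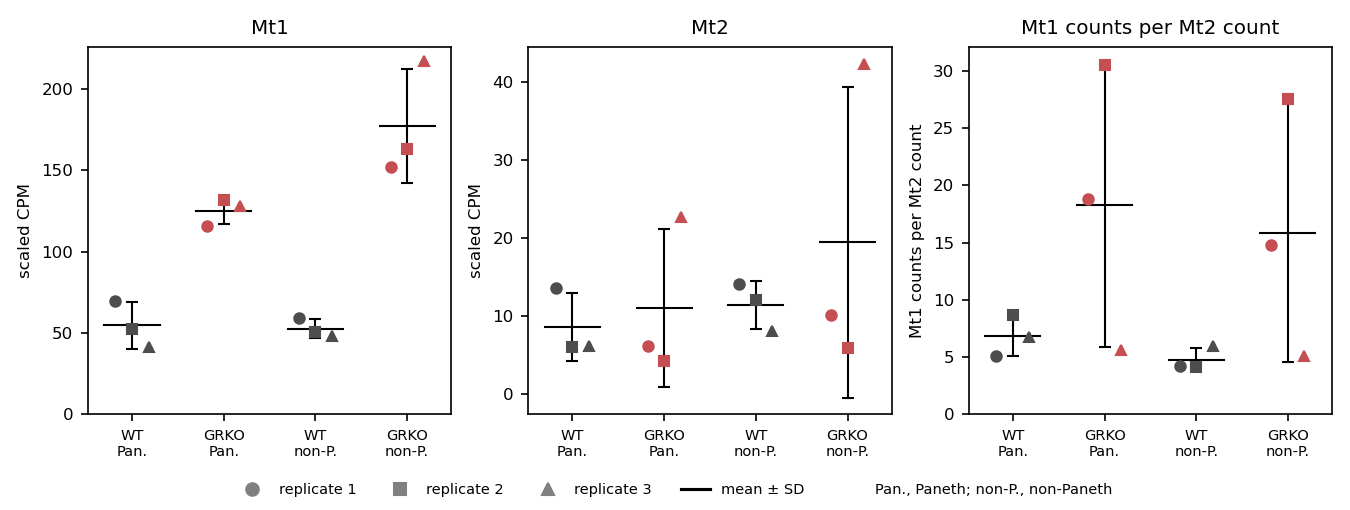
Scaled CPM of Mt1 and of Mt2, and Mt1 counts for each Mt2 count, in every library by group; symbols mark replicate numbers, horizontal lines the mean and bars the SD (n = 3). Mt1 is above all WT libraries in all 6 GRKO libraries, whereas Mt2 is high in GRKO replicate 3 alone, where the ratio is 5.64 and 5.12.

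Between the fractions, neither Mt1 nor Mt2 differed in WT mice by the test. The log2 fold change of Paneth over non-Paneth cells was 0.05 ± 0.177 for Mt1 (adjusted p = 0.821) and -0.39 ± 0.873 for Mt2 (adjusted p = 0.743). For Mt1 the direction turned with the scaling, to -0.63 (adjusted p = 0.0153) with library totals alone. In GRKO mice, Mt1 was lower in Paneth cells by 0.5 ± 0.174 on the log2 scale (adjusted p = 0.0309), a call that was lost in 9 of 16 alternatives and without each GRKO library. Mt2 was lower in the Paneth than in the same-numbered non-Paneth library in all 6 pairs. In GRKO mice its log2 fold change was -0.81 in the test without the block, which did not pass, and -0.73 (adjusted p = 0.00478) with the replicate block, which in WT mice gave -0.45 (adjusted p = 0.0591). Mt3, a metallothionein known from the brain, had 14 to 27 counts in each Paneth library, 4 to 7 in GRKO non-Paneth and 0 to 1 in WT non-Paneth libraries. At these low counts the test called Mt3 higher in Paneth than in non-Paneth cells of both genotypes. It also called Mt3 higher in GRKO than in WT non-Paneth cells, which DESeq2 did not. Mt4 was not tested.

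Mtf1, the zinc sensor, fell with the deletion in non-Paneth cells. It was found there at 31.9, 35.5 and 34.8 scaled CPM in WT and 22.5, 21.2 and 20.8 in GRKO replicates. All GRKO libraries were below all WT libraries, with a log2 fold change of -0.67 ± 0.183 (adjusted p = 0.0105). This call was lost with library totals, where the log2 fold change was -0.38 (adjusted p = 0.166). In Paneth cells Mtf1 was found at 10.5, 12.1 and 17 scaled CPM in WT and at 14.4, 25.1 and 18.4 in GRKO replicates. These groups overlapped, and the log2 fold change of 0.56 ± 0.2 did not pass the threshold (adjusted p = 0.0995), although it did without GRKO replicate 1 (0.73, adjusted p = 0.0301) and without WT replicate 3 (0.78, adjusted p = 0.0457). WT Paneth cells held less Mtf1 than WT non-Paneth cells, by 1.37 ± 0.196 on the log2 scale (adjusted p = 3.08e-05). In GRKO mice the fractions differed by -0.15 ± 0.189 (adjusted p = 0.58).

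Slc30a2, the ZnT2 gene of Paneth granules, was the member whose fractions stood furthest apart in GRKO mice. In Paneth cells it was found at 89.1, 118 and 106 scaled CPM in WT and 121, 135 and 147 in GRKO replicates. In non-Paneth cells it was found at 48.9, 51.3 and 41.5 in WT and at 20.2, 14.1 and 23.2 in GRKO replicates. All Paneth libraries lay above all non-Paneth libraries, and within non-Paneth cells GRKO libraries lay below WT libraries. The deletion went with a log2 fold change of -1.3 ± 0.17 in non-Paneth cells (adjusted p = 6.08e-05) and 0.37 ± 0.165 in Paneth cells (adjusted p = 0.17). Paneth cells held 2.2-fold more Slc30a2 RNA than non-Paneth cells in WT mice (adjusted p = 4.06e-05) and 7.01-fold more in GRKO mice (adjusted p = 1.97e-08). The difference between these effects was 1.67 ± 0.237 on the log2 scale (adjusted p = 0.000496).

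Slc30a1 encodes ZnT1, the exporter of the cell membrane and the best known transporter target of MTF1. It was found at 5.89, 6.18 and 4.38 scaled CPM in WT and 4.95, 7.23 and 8.04 in GRKO Paneth cells. In non-Paneth cells the values were 18.4, 34.1 and 26.6 in WT and 13.6, 13.1 and 15 in GRKO replicates. Every non-Paneth library lay above every Paneth library, and GRKO was below WT in non-Paneth cells. Slc30a1 fell there by 0.92 ± 0.21 on the log2 scale (adjusted p = 0.0032), while Mt1, which carries the same core in its promoter, rose. In Paneth cells the log2 fold change was 0.31 ± 0.252 (adjusted p = 0.448). Paneth cells held less Slc30a1 than non-Paneth cells in WT mice, by 2.26 ± 0.237 (adjusted p = 1.28e-06), and in GRKO mice, by 1.03 ± 0.228 (adjusted p = 0.00215).

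Slc30a5 and Slc30a7 encode ZnT5 and ZnT7, which carry zinc into the early secretory pathway, where enzymes such as alkaline phosphatase receive it. Slc30a5 was found at 42.2, 68 and 71.7 scaled CPM in WT and 75.1, 83.5 and 82.1 in GRKO Paneth cells. Its non-Paneth values were 75.1, 84.8 and 97.8 in WT and 77.7, 79.3 and 75.2 in GRKO libraries. The low WT Paneth library was replicate 1. Genotype made no difference past the threshold, with log2 fold changes of 0.41 ± 0.166 in Paneth (adjusted p = 0.137) and -0.15 ± 0.162 in non-Paneth cells (adjusted p = 0.496). WT Paneth cells were lower than WT non-Paneth cells by 0.5 ± 0.165 on the log2 scale (adjusted p = 0.0185), a call that was lost without WT Paneth replicate 1 (0.3 lower, adjusted p = 0.0547) and without non-Paneth replicate 2 or 3 of WT.

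Slc30a7 was found at 41.9, 55.8 and 58.8 scaled CPM in WT and 60.6, 74.9 and 87.7 in GRKO Paneth cells. Its non-Paneth values were 29.4, 41.2 and 44.5 in WT and 39.9, 42.2 and 37.6 in GRKO libraries. In Paneth cells GRKO lay above WT in scaled CPM. In CPM of library totals the groups overlapped, at 34.6 to 44.7 in WT and 40.1 to 69 in GRKO libraries. The log2 fold change of 0.52 ± 0.174 did not pass the threshold (adjusted p = 0.0868). It passed without GRKO replicate 1 (0.65, adjusted p = 0.036). Paneth over non-Paneth cells gave 0.44 ± 0.174 in WT (adjusted p = 0.0465) and 0.9 ± 0.172 in GRKO mice (adjusted p = 0.000729). The WT call was lost in 6 of 17 alternatives, 1 of them without both WT replicate 2 libraries (adjusted p = 0.128), and with library totals the direction turned in both genotypes, to -0.27 and -0.06.

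Slc39a4, the ZIP4 gene of dietary zinc uptake, was the member most reduced in the WT Paneth fraction beside Slc30a1. It was found at 46.3, 55.5 and 51.2 scaled CPM in WT and 55.1, 72.7 and 39.9 in GRKO Paneth cells. Its non-Paneth values were 221, 257 and 210 in WT and 131, 123 and 106 in GRKO libraries. Non-Paneth libraries lay above all Paneth libraries, and within them GRKO lay below WT. The genotype difference in non-Paneth cells was -0.94 ± 0.173 on the log2 scale (adjusted p = 0.000795), and in Paneth cells it was 0.13 ± 0.178 (adjusted p = 0.658). WT Paneth cells held 4.5-fold less than WT non-Paneth cells (adjusted p = 1.37e-07), and GRKO Paneth cells 2.14-fold less than GRKO non-Paneth cells (adjusted p = 0.000167).

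Slc39a7 encodes ZIP7, which releases zinc from the endoplasmic reticulum and Golgi. It was found at 6.74, 8.53 and 7.69 scaled CPM in WT and 6.77, 11 and 12.4 in GRKO Paneth cells. In non-Paneth cells the values were 4.2, 3.25 and 3.21 in WT and 4.8, 3.44 and 4.14 in GRKO libraries. Paneth libraries lay above non-Paneth libraries in both genotypes, and the genotypes overlapped. Paneth cells held 2.16-fold more in WT (adjusted p = 0.00146) and 2.45-fold more in GRKO mice (adjusted p = 0.000461). With library totals these calls were lost, at log2 fold changes of 0.4 and 0.35. The deletion gave log2 fold changes of 0.41 ± 0.237 (adjusted p = 0.283) in Paneth and 0.22 ± 0.239 (adjusted p = 0.509) in non-Paneth cells.

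**Figure D2:**
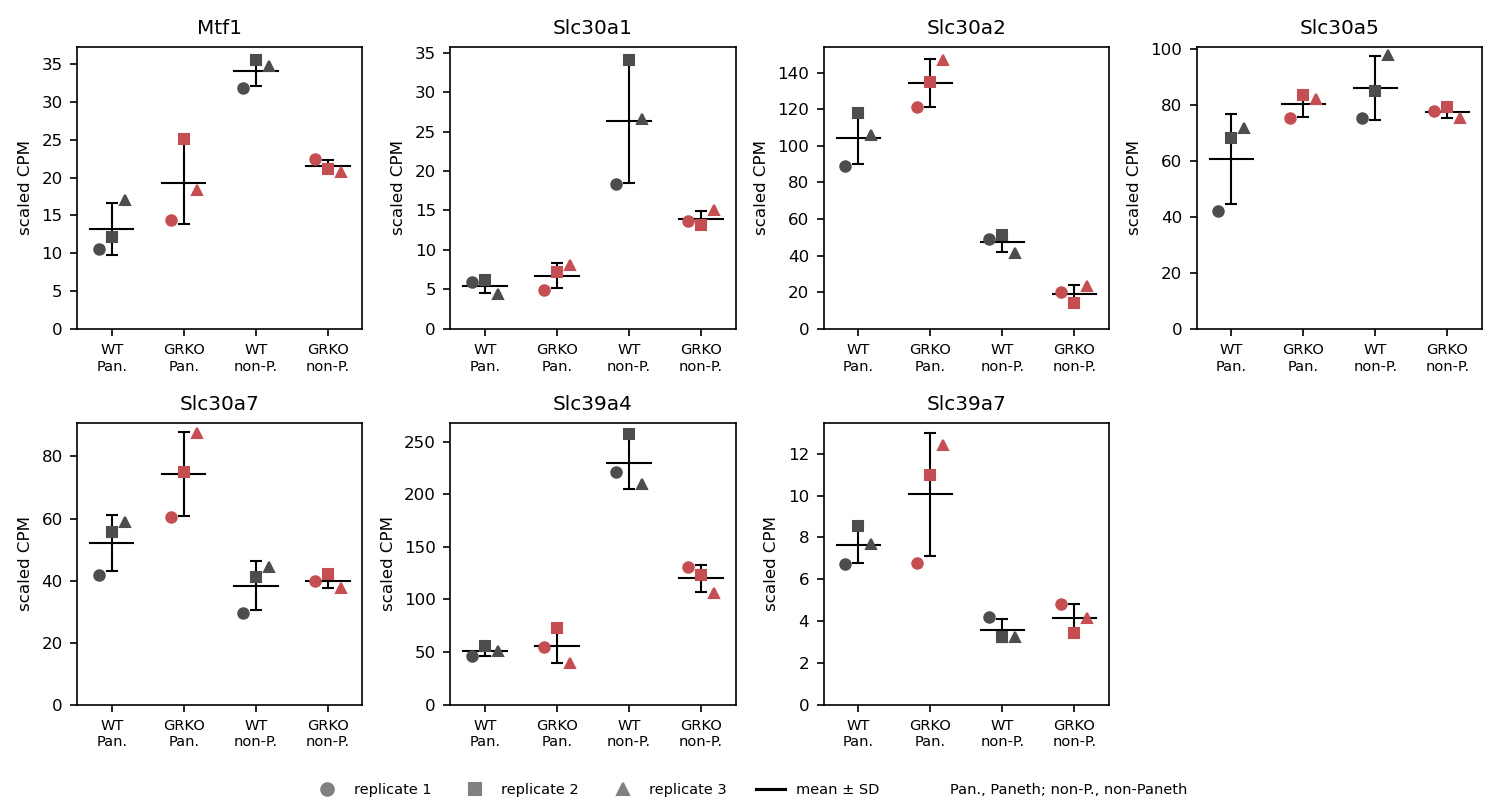
Scaled CPM of Mtf1 and the 6 zinc transporter members in every library by group; symbols mark replicate numbers, horizontal lines the mean and bars the SD (n = 3). Slc30a2 and Slc39a7 are higher in Paneth cells, Slc30a1 and Slc39a4 in non-Paneth cells, and Mtf1, Slc30a1, Slc30a2 and Slc39a4 are lower in GRKO than in WT non-Paneth libraries.

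Counted over the members, the deletion in Paneth cells gave 1 call of 9, Mt1 (higher), where 3.22% of all genes tested were called, 1.7% higher and 1.52% lower. That background rests on single libraries as well. All libraries gave 420 genes called. The same edgeR test called 0 genes without GRKO Paneth replicate 2, 1 gene without WT Paneth replicate 1 and 1 gene without both WT replicate 2 libraries. At an unadjusted p under 0.05 the full fit held 3491 genes, and DESeq2 called 1421. All 9 members had a positive log2 fold change in Paneth cells, with a median of 0.41 against 0.03 over all genes. In this comparison the log2 fold change of a gene rose with its exonic length (Spearman's rho = 0.271 across genes, which are not independent), and with a length and GC trend removed all 9 were positive with a median of 0.39, against 0.01. In non-Paneth cells 5 of 9 members were called, 1 higher and 4 lower, where 37.3% of all genes were called, 17.5% higher and 19.8% lower. The median over the members was -0.15, against 0.02 over all genes. With library totals 1 member was higher and 3 were lower, and the share of higher genes among all genes called went from 46.9% to 74.6%.

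**Figure D3:**
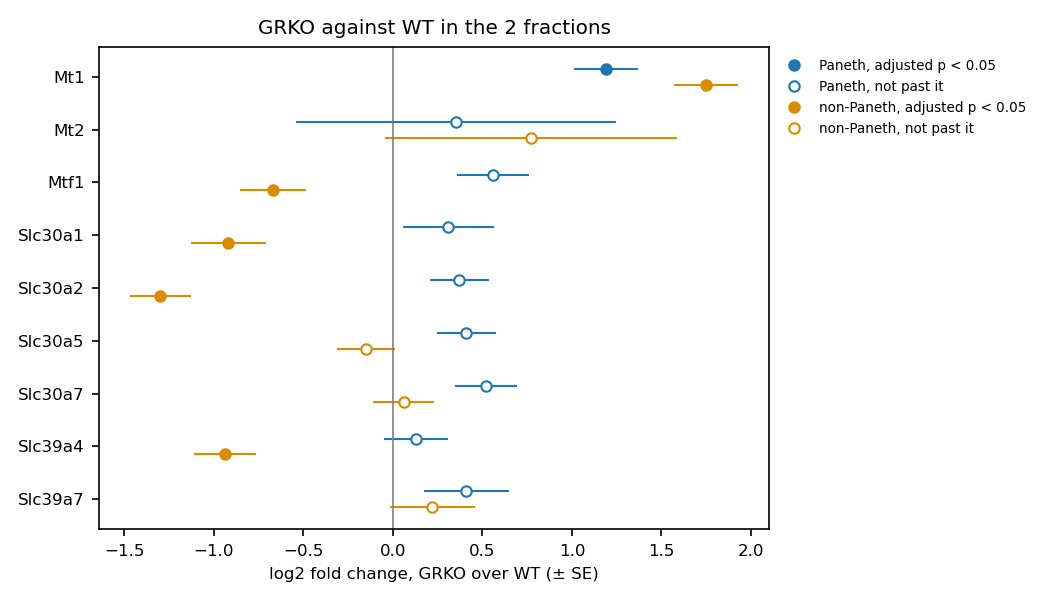
Log2 fold change of GRKO over WT with its SE for each of the 9 members, in Paneth and in non-Paneth cells; filled points passed the 5% threshold over all genes. Mt1 is to the right of 0 in both fractions, and Mtf1, Slc30a1, Slc30a2 and Slc39a4 lie to the left of 0 in non-Paneth cells.

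Cell type markers moved with genotype in the same non-Paneth libraries. The sum of 7 enterocyte markers was 26677 to 30081 CPM of library totals in WT and 6743 to 8257 in GRKO non-Paneth cells, and none of the markers was at 0. By the test 3 of the 7 were lower, and DESeq2 called 6. In this comparison the test called 37.3% of all genes, 17.5% higher and 19.8% lower. Alpi, an enterocyte alkaline phosphatase that needs zinc, was found at 594 to 810 scaled CPM in WT and 142 to 268 in GRKO non-Paneth libraries and did not pass (-1.82 ± 0.66, adjusted p = 0.059). The sum of 4 stem cell markers was 3990 to 5546 CPM of library totals in WT and 6294 to 8340 in GRKO. By the test 3 of the 4 were higher, while Olfm4, the most abundant, overlapped in scaled CPM, at 3180 to 4363 in WT and 4066 to 5360 in GRKO (adjusted p = 0.149). The sum of 3 proliferation markers was 685 to 787 CPM in WT and 1428 to 1528 in GRKO, and all 3 were higher. The sum of 4 tuft cell markers was 3.8 to 10.5 CPM in WT and 92.8 to 369 in GRKO non-Paneth cells. That of 6 goblet markers was 7954 to 17028 and 8003 to 10899 there, with 2 of the 6 lower by the test. That of 4 enteroendocrine markers was 187 to 584 and 424 to 631, with 1 of the 4 higher. In Paneth cells the tuft sum was 131 to 331 CPM in WT and 318 to 873 in GRKO, while that of enterocyte markers was 474 to 1384 and 495 to 809. The stem sum there was 5012 to 6502 CPM in WT and 3057 to 4359 in GRKO, and that of 6 goblet markers 2198 to 3573 and 2208 to 3340. By the test none of these markers was called in Paneth cells, where 3.22% of all genes were called. DESeq2 called 1 stem, 1 goblet and 2 enterocyte markers there. In the interaction 4 of 4 stem and 3 of 4 tuft markers were lower and 1 of 7 enterocyte markers higher, where 7.28% of all genes were lower and 11.5% higher. The part of these markers in the changes of Mt1, Mtf1, Slc30a1, Slc30a2 and Slc39a4 was not tested.

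The effect of the deletion differed between the fractions for 4 of the 9 members, all with a higher log2 fold change in Paneth than in non-Paneth cells. Over all genes 18.7% were called in this interaction, 11.5% higher and 7.28% lower. With library totals 3 members were called, all higher, and the share of higher genes among all genes called went from 61.2% to 29.1%. The 4 members were Mtf1 (1.22 ± 0.271, adjusted p = 0.00697), Slc30a1 (1.23 ± 0.327, adjusted p = 0.0179), Slc30a2 (1.67 ± 0.237, adjusted p = 0.000496) and Slc39a4 (1.07 ± 0.248, adjusted p = 0.00894). The call of Slc30a1 was lost without WT non-Paneth replicate 2 (1, adjusted p = 0.0512), without both WT replicate 2 libraries (1.09, adjusted p = 0.0509) and with library totals (0.97, adjusted p = 0.0634). Slc30a5 (0.56 ± 0.232, adjusted p = 0.106) and Slc30a7 (0.46 ± 0.244, adjusted p = 0.201) did not pass.

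Between fractions, 7 of 9 members were called in WT mice, 3 higher in Paneth cells (Slc30a2, Slc30a7, Slc39a7) and 4 lower (Mtf1, Slc30a1, Slc30a5, Slc39a4). Of all genes 50.7% were called, 24% higher and 26.7% lower. In GRKO mice 6 were called, the same 3 higher and Mt1, Slc30a1 and Slc39a4 lower, where 39.2% of all genes were called, 18.0% higher and 21.2% lower. With the replicate block Mt2 was called too, as lower. The comparison depends in part on the scaling. With library totals 1 member was higher and 5 were lower in each genotype, and the share of higher genes among all genes called went from 47.3% to 12.2% in WT and from 45.8% to 7.6% in GRKO mice. The median of all genes then moved to -0.68 in WT and -1.05 in GRKO mice. Relative to that median, Slc30a2 was at 1.12 and 2.9, Slc30a7 at 0.42 and 0.99, Slc39a7 at 1.08 and 1.4, and Slc39a4 at -2.19 and -1.01.

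The 3 gene families hold 28 genes in the table, 8 of them members, and 24 were tested. Slc30a3, Slc30a8, Slc39a12 and Mt4 were too low. Among the 16 other genes tested, 0 were called by genotype in Paneth cells with edgeR, 4 had an unadjusted p under 0.05, and DESeq2 called 1. Over all 13057 genes edgeR called 3.22% there, 3491 had an unadjusted p under 0.05, and DESeq2 called 1421, so that these counts are near the background. In non-Paneth cells 7 were called, 3 higher and 4 lower. In non-Paneth cells Slc30a10, whose product exports manganese, was found at 34.3, 41.7 and 23.1 scaled CPM in WT and 9.22, 4.74 and 5.26 in GRKO libraries. It fell by 2.37 ± 0.365 on the log2 scale (adjusted p = 0.000431), more than any member. Slc30a4 (-0.63 ± 0.22, adjusted p = 0.0374) and Slc39a14 (-0.73 ± 0.144, adjusted p = 0.00118) were lower too. Slc39a10 (1.06 ± 0.27, adjusted p = 0.00798) and Slc39a13 (0.56 ± 0.188, adjusted p = 0.0299) were higher, as was Mt3 at the low counts given above. All 4 exporters called in non-Paneth cells, of 8 tested, were lower, and of the 5 importers called, of 13 tested, 2 were higher and 3 lower. Of all genes 37.3% were called there, 17.5% higher and 19.8% lower, so that 5 of 13 importers is near the background.

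Levels of many members of both transporter families differed between Paneth and non-Paneth cells. Of 13 importers tested in WT mice, 6 were higher and 4 lower in Paneth cells, and of 8 exporters 2 were higher and 5 lower, where 50.7% of all genes were called, 24% higher and 26.7% lower. The split into higher and lower depends on the scaling, as for the members. Slc39a13 (2.16 ± 0.189, adjusted p = 2e-07), Slc39a8 (1.97 ± 0.245, adjusted p = 1.87e-05) and Slc39a10 (1.79 ± 0.276, adjusted p = 0.000121) were higher in WT Paneth cells. Slc39a8 encodes a zinc and manganese importer of the cell membrane, and ZIP13 and ZIP7 are both importers of the secretory pathway. Slc30a4 was lower by 0.98 ± 0.226 (adjusted p = 0.0024). Slc30a10 had 0 to 8 counts in each Paneth library, against 113 to 717 in non-Paneth libraries. In GRKO mice 7 importers were higher and 2 lower, and 3 exporters were higher and 2 lower, where 39.2% of all genes were called. Slc39a13, Slc39a11, Slc39a8 and Slc39a10 were again higher there, with log2 fold changes of 1.68, 1.52, 1.49 and 1.39.

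**Figure D4:**
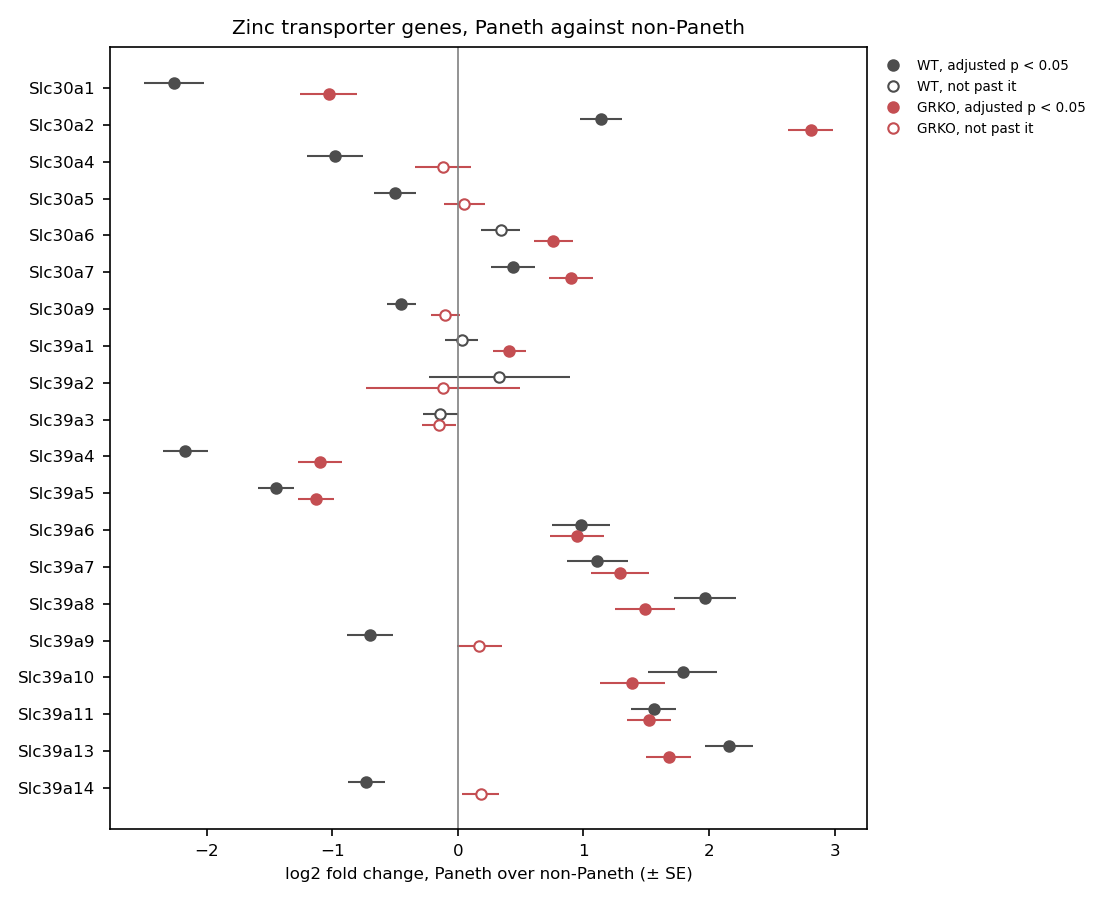
Log2 fold change of Paneth over non-Paneth cells with its SE for the tested zinc transporter genes, in WT and in GRKO mice; filled points passed the 5% threshold over all genes, and Slc30a10, at -6.44 in WT and -4.37 in GRKO, is left out for scale. Slc39a13, Slc39a8, Slc39a10 and Slc39a11 lie to the right of 0 in both genotypes, and Slc30a1, Slc39a4 and Slc39a5 to the left.

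Other metal genes were described from fixed lists. Of 10 iron genes, 6 were lower and 0 higher in GRKO non-Paneth cells, among them the mitochondrial iron importer Slc25a37 (-1.47 ± 0.2, adjusted p = 9.74e-05), the basolateral ferroxidase Heph (-1.31 ± 0.196, adjusted p = 0.000191) and the ferritin heavy chain Fth1 (-0.7 ± 0.168, adjusted p = 0.00459). Their median was -0.44, against 0.02 over all genes, of which 37.3% were called and 19.8% were lower. The summed enterocyte markers were lower in the same libraries, by the values given above, and their part in the iron genes was not tested. In Paneth cells edgeR called 0 of the 10, 1 had an unadjusted p under 0.05, and DESeq2 called 1. Over all 13057 genes edgeR called 3.22% there, 3491 had an unadjusted p under 0.05, and DESeq2 called 1421, so that 0 of 10 is near the background. Of 10 copper genes, 2 were lower in GRKO non-Paneth cells, the copper importer Slc31a1 (-0.66 ± 0.138, adjusted p = 0.00188) and the copper chaperone Cox17 (-0.99 ± 0.289, adjusted p = 0.0142). In Paneth cells edgeR called 0 of the 10, against the same 3.22% of all genes, 5 had an unadjusted p under 0.05, and DESeq2 called 1. Of 4 other genes linked to MTF1, Selenoh was lower in GRKO Paneth cells (-0.87 ± 0.15, adjusted p = 0.0347), where 3.22% of all genes were called. Selenow was lower in GRKO non-Paneth cells (-0.57 ± 0.179, adjusted p = 0.022), where 37.3% of all genes were called.

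Among 6 tested zinc enzymes of the secretory pathway, 1 was called by genotype in non-Paneth cells, where 37.3% of all genes were called. It was Enpp3 (-2.01 ± 0.411, adjusted p = 0.00434), an ectoenzyme of the brush border. All 6 differed between the fractions in WT mice, with Mmp7, the zinc protease that processes alpha defensins, at 7.8 ± 0.584 (adjusted p = 9.2e-07) and Enpp1 higher in Paneth cells. Alpi, Akp3, Car4 and Enpp3 were lower, Alpi by 5.94 ± 0.814 (adjusted p = 0.000298). Between the fractions in WT mice 50.7% of all genes were called, 24% higher and 26.7% lower. Of 7 tested glucocorticoid receptor targets, 4 were lower and 0 higher in GRKO non-Paneth cells, where 37.3% of all genes were called and 19.8% were lower. Among the 4 lower targets were Sgk1 (-2.91 ± 0.325, adjusted p = 7.37e-05) and Tsc22d3 (-0.85 ± 0.163, adjusted p = 0.00103). In GRKO Paneth cells 1 of the 7 was lower, Sgk1 (-1.78 ± 0.4, adjusted p = 0.0448), where 3.22% of all genes were called. Of the 7, 3 had a positive log2 fold change in non-Paneth cells and 1 in Paneth cells, none past the threshold. Mt1, which glucocorticoids are known to induce, moved opposite to Sgk1 in both fractions.

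Levels of different genes were compared as scaled CPM per kb of exon, over all exonic bases of a gene. In WT Paneth cells Mt1 was highest, at 43.9 ± 11.4 (SD, n = 3), followed by Slc30a2 at 27 ± 3.76 and Slc39a4 at 12.2 ± 1.1. Mt2 came next at 9.05 ± 4.54, and its libraries overlapped those of Slc39a4. Slc30a5, Slc30a7, Slc39a7, Mtf1 and Slc30a1 followed, from 5.38 down to 0.968, and Slc30a5 and Slc30a7 overlapped, as did Slc30a7 and Slc39a7. The order differed in WT non-Paneth cells, where Slc39a4 led with 55 ± 5.93 and Mt1 followed with 42.3 ± 4.65. Slc30a2, Mt2 and Slc30a5 were next at 12.2, 12 and 7.61, Mt2 overlapping both neighbours, and Slc39a7 was last at 1.34. This order depends on the length used. Per kb of the longest transcript Slc30a5, Mt2 and Slc30a2 came in this order in WT non-Paneth cells, at 15.4, 15.3 and 13.7, and per kb of the canonical transcript Mt1 was at 71.7 in WT Paneth cells.

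In GRKO mice Mt1 led in both fractions, with 100 ± 6.72 per kb in Paneth and 142 ± 28 in non-Paneth cells. Slc30a2 was in rank 2 in GRKO Paneth cells at 34.8 ± 3.41 and in rank 5 in GRKO non-Paneth cells at 4.96 ± 1.2. Mt2 ranged from 4.55 to 23.9 in GRKO Paneth and from 6.22 to 44.6 in GRKO non-Paneth libraries. Dividing Slc39a7 by the 577 exonic bases that it does not share with Gm20427 raised it from 2.88 to 13.3 in WT Paneth cells, which put it in rank 3 there, and from 1.34 to 6.16 in WT non-Paneth cells, in rank 6.

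**Figure D5:**
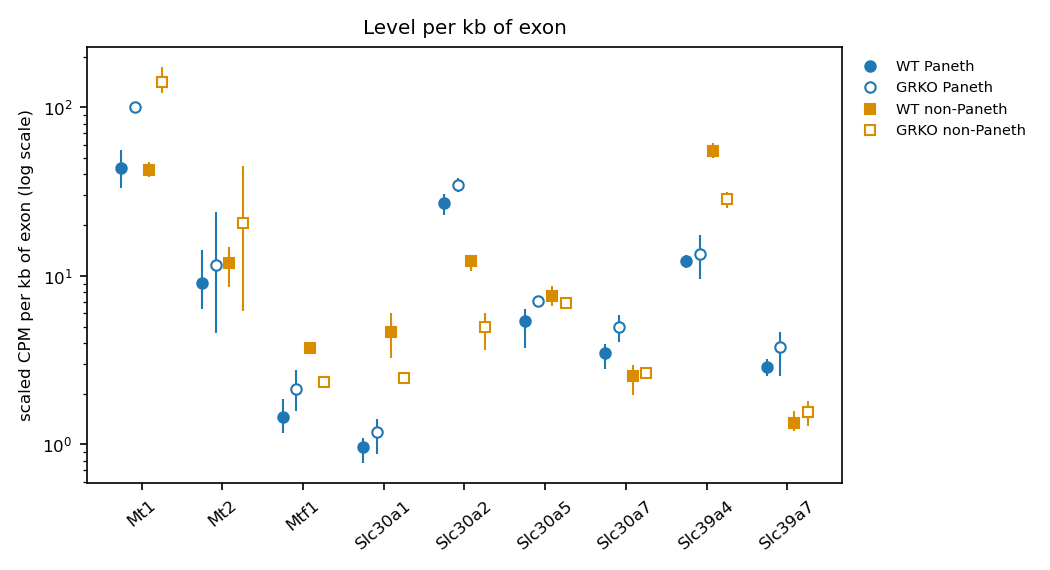
Scaled CPM per kb of exon of each member on a log axis; points are group means and vertical lines run from the lowest to the highest of 3 libraries. Mt1 is the highest member except in WT non-Paneth cells, where Slc39a4 reaches 55, and Slc30a1 is the lowest in both Paneth groups.

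For 3 members the genes most alike over the 12 libraries were looked up by Pearson correlation of log2 CPM, given as a description, since the 4 groups set most of it. Mt1 was most like Elac2, a tRNA processing nuclease (r = 0.95), Tsnax (r = 0.939) and Lrrc47 (r = 0.929), and Mt2 ranked 3523 with r = 0.309. Elac2 was found at 23.4 to 29.6 scaled CPM in WT and 31 to 37.2 in GRKO Paneth cells, a smaller step than that of Mt1. Slc30a2 was most like Plpp5 (r = 0.979), Amy1 (r = 0.974) and Btg2 (r = 0.974), and Plpp5 was found at 77.6 to 83.5 scaled CPM in GRKO Paneth and 14.8 to 18.1 in GRKO non-Paneth cells. Slc39a4 was most like Spint1 (r = 0.993), Agpat2 (r = 0.993) and Adap1 (r = 0.992), which were highest in WT non-Paneth cells as well.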

How the data were processed

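Single-end reads from a stranded TruSeq kit were mapped to mm39 by STAR, with an annotation the methods call gencode v28, and the authors deposited raw gene counts, without normalization, for 12 libraries. The submitters' processing notes name STAR 2.7.10a and Trimmomatic 0.39. STAR leaves out reads that map to several places or overlap several genes of the counted strand. The records name the Aurum kit for the RNA and the methods the RNeasy Plus Micro kit. From the deposited counts, genes were named through GENCODE vM39 (54749 of 55414, 98.8%), and 13057 genes entered the test in edgeR 4.0.16 under R 4.3.3 (filterByExpr, TMM, glmQLFit with robust estimates, glmQLFTest, 1 mean per group, Benjamini-Hochberg over all genes, 5%). The fit was tested on simulated data. Genes too low to pass the filter were not tested. SE is the log2 fold change divided by the square root of F. Levels per kb divide by all exonic bases.

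Of genes with at least 90% of their exonic bases under another gene, 35.3% reached 1 CPM where that gene was on the opposite strand and 2.6% where it was on the same strand, so the counts used strand. No pair of libraries was a repeat (chi-square per degree of freedom 12.3 to 47.1 within groups). After the group means were removed, WT Paneth and non-Paneth libraries of 1 number correlated at 0.35, 0.23 and 0.24, above the limit of 0.1, so the numbers pair them, and those of GRKO at 0.013, 0.26 and 0.47.

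Alternatives were DESeq2 1.42.0, RLE factors, library totals, TMM without Lyz1 and the Defa genes, no filter, at least 10 counts in every library of a group, a fit of only the libraries compared, a length and GC trend removed, a block for the replicate number, a 1% threshold and each library left out. 2 further gene lengths (canonical transcript, unshared exonic bases) and a fit without both libraries of WT replicate 2 were added after seeing the data. The members and lists were chosen with earlier results of these data known. Named genes were all members, Nr3c1, up to 4 called genes of each list and comparison with at least 1 CPM, by the size of the change, and the 3 genes most like Mt1, Slc30a2 and Slc39a4; others were chosen after their values were seen, among them Alpi as a marker.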

Additional observations from a re-analysis of the deposited data

Results flagged for a closer look

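For 4 members the effect of the deletion differed between the fractions by the interaction test of edgeR over all genes. That test called 18.7% of all genes, 11.5% higher and 7.28% lower. The log2 fold change of GRKO over WT in Paneth cells was higher than in non-Paneth cells by 1.22 for Mtf1, 1.23 for Slc30a1, 1.67 for Slc30a2 and 1.07 for Slc39a4. All 4 were called as lower in GRKO than in WT non-Paneth cells, where 37.3% of all genes were called and 19.8% were lower. In Paneth cells the genotypes differed by 0.13 to 0.56 on the log2 scale for these members, which did not pass the threshold. Enterocyte and tuft cell markers moved with genotype in the same non-Paneth libraries, and their part in these differences was not tested.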

How the results depend on the processing

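Over 45 pairs of a member and a comparison, 801 alternative values were computed, of which 735 kept their direction and their side of the threshold, 32 lost the call, 13 gained one and 21 turned direction. The number of members called by genotype in Paneth cells moved from 1 to 0 at a 1% threshold, with library totals, with only the groups compared and without both WT replicate 2 libraries, to 3 without a filter and to 2 with the replicate block, and lay between 0 and 3 with 1 library left out. All genes called there, 420 in the test as reported, numbered 0 at 1%, 0 with only the groups compared, 2 with library totals, 1 without both WT replicate 2 libraries, 257 with the length and GC trend removed, 977 with the replicate block, 1421 with DESeq2 and 1780 without a filter, and 0 to 1618 with 1 library left out. At 1% the 4869 genes called in non-Paneth cells went to 3002 and the 2446 of the interaction to 955, and with library totals the 5117 between fractions in GRKO went to 10784. Zinc family genes called went from 1 to between 0 and 4 in Paneth cells and from 5 to between 2 and 8 for the interaction. In the other comparisons the number of members called stayed within 1.5 times the main value. The replicate block, whose numbers pair the libraries in WT, changed no call between fractions there. In the other comparisons libraries share only a number, and 4 of 6 GRKO libraries correlated best with their own number. The block gave 5 calls in non-Paneth cells, 7 between fractions in GRKO (Mt2 added, log2 fold change -0.73, adjusted p = 0.00478) and 5 for the interaction.

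Directions that turned were mostly of main values near 0, but in 4 of the 21 the main or the alternative value passed the threshold. These 4 were Paneth over non-Paneth with library totals, of Mt1 and Slc30a7 in WT and of Slc30a5 and Slc30a7 in GRKO. With library totals, GRKO over WT in non-Paneth cells gave 0.14 for Slc30a5. Paneth over non-Paneth gave -0.63 for Mt1 and -0.27 for Slc30a7 in WT, and -0.91 for Slc30a5 and -0.06 for Slc30a7 in GRKO, and the interaction of Slc39a7 was -0.05. Slc30a7 in non-Paneth cells gave -0.00056 with RLE factors, -2.5e-06 with the stricter filter, -0.00036 with DESeq2 and -0.16 to 0.11 with 1 library left out. Without a filter, Paneth over non-Paneth gave -0.00075 for Mt1 in WT and -0.01 for Slc30a5 in GRKO. With 1 library left out, GRKO over WT of Mt2 lay between -0.75 and 0.87 in Paneth and between -0.55 and 1.15 in non-Paneth cells, and that of Slc39a4 in Paneth cells between -0.1 and 0.33. Paneth over non-Paneth lay between -0.17 and 0.24 for Mt1 in WT, and in GRKO between -1.92 and 0.56 for Mt2 and between -0.39 and 0.02 for Mtf1, and the interaction of Mt2 between -1.52 and 0.85. The cause was not tested.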
